A study of Homo sapiens with 6 samples.

Results

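The 36 genes described here encode the enzymes of glycolysis, the transporters that carry glucose in and lactate out, the kinases that regulate the pathway, and the hypoxia-inducible factors (HIF) with their oxygen-sensing hydroxylases and target genes. They were chosen by symbol, and all 36 were found among the 60662 genes with a value. RNA was sequenced from HCT116 cells, an established human colorectal carcinoma line grown under standard culture conditions. The control cells (shCtrl, genotype given as WT in the labels) were stably transduced with a control plasmid, and the GMDS-AS1 knockdown (KD) cells with a plasmid for 1 short hairpin RNA, shRNA2, against the long non-coding RNA GMDS-AS1. Each group had 3 libraries, which the labels call biological replicates without naming separate cultures, so p-values measure the spread between these libraries. A second hairpin was not analysed here, and the effects of the target and of this 1 hairpin cannot be told apart.

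Glycolysis splits glucose into pyruvate and yields ATP without oxygen, and many cancer cells run it at a high rate and export the pyruvate as lactate. HIF-1 is a transcription factor of an alpha subunit, which prolyl hydroxylases mark for destruction when oxygen is present, and a beta subunit. When oxygen is low the alpha subunit persists, and HIF-1 raises genes of glucose uptake, glycolysis, blood vessel growth and pH control.

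Expression was given in TPM, a unit that divides reads by transcript length and sums to a near-constant total in each library. For tests, each library was divided by a trimmed mean scaling factor, and log2(TPM + 1) was compared between KD and shCtrl with limma over the 16901 genes that reached 0.5 TPM in 3 or more libraries. Fold changes of weakly expressed genes are understated on this scale. The choice of scale bears on every gene below, because the median log2 fold change of all genes was 0.00 after scaling and -0.20 with TPM as deposited. Both values are therefore given, a gene is called at a Benjamini-Hochberg adjusted p under 0.05 from limma, and TPM of single libraries are as deposited. TPM does not hold read totals, and sequencing depth is unknown.

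The targeted gene, listed as GMDS-DT (ENSG00000250903), was listed at 1.66, 2.21 and 1.34 TPM in shCtrl and at 0.880, 0.910 and 0.790 TPM in KD. The log2 fold change was -0.41 (SE 0.14, adjusted p from limma = 0.0412) after scaling and -0.55 (adjusted p = 0.0147) as deposited. The call after scaling was lost without any 1 library other than shCtrl replicate 3, with a highest adjusted p of 0.113 in limma without shCtrl replicate 2. Of 10 colorectal epithelial markers 8 reached the filter and CDX1 was at 0 in every library. Of the 8, KRT8, KRT18, KRT19 and CLDN7 were lower on both scales, with log2 fold changes of -1.83 to -0.26 after scaling and -2.08 to -0.51 as deposited. EPCAM, KRT20, CDH1 and CDX2 were called on neither scale, with 0.02 to 0.18 after scaling and -0.20 to -0.055 as deposited. The summed level, 9428 to 9878 TPM in shCtrl and 3593 to 3706 TPM in KD, was made up mostly of the keratins KRT8, KRT18 and KRT19, whereas EPCAM had 156 ± 13.3 and 149 ± 9.52 TPM (SD, n = 3). The 8 markers of blood, stromal and endothelial cells summed to 17.2 to 23.6 TPM over all libraries. Most of this was COL1A1 (means of 13.6 TPM in shCtrl and 10.5 TPM in KD) and CD68 (7.07 and 7.48 TPM). The leukocyte marker PTPRC was at 0. The part of these marker levels in the results was not tested. In bulk RNA, fewer cells that express a gene and less RNA per cell cannot be told apart.

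Among genes called on both scales, 9 glycolytic enzymes were higher after GMDS-AS1 KD and 4 lower, the latter including both lactate dehydrogenases. Both glucose transporters were lower, and of the 8 other HIF-1 targets 4 were lower and 4 had no such call. All 36 genes passed the filter. After scaling, 18 were higher and 12 lower in KD, where 28.7% of all tested genes were higher and 25.8% lower. On the deposited scale 11 were higher and 18 were lower, against 16.3% and 40.3% of all genes. A call in the same direction on both scales was found for 11 higher genes (16.3% of all genes) and 12 lower genes (25.8% of all genes). The call of the other 13 genes depended on the scale for 12, and CA9 was called on neither. The deposited TPM of the groups did not overlap for 30 of the 36 genes, a pattern that 63.7% of all tested genes had. At a fold change of at least 2 after scaling, PGAM1 and GPI were higher (2.96% of all genes passed this threshold) and SLC2A3 was lower (4.21% of all genes). As deposited PGAM1 alone was higher and SLC2A3, VEGFA and EGLN3 were lower. On that scale 225 and 1177 of the 16901 tested genes passed.

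**Figure D1:**
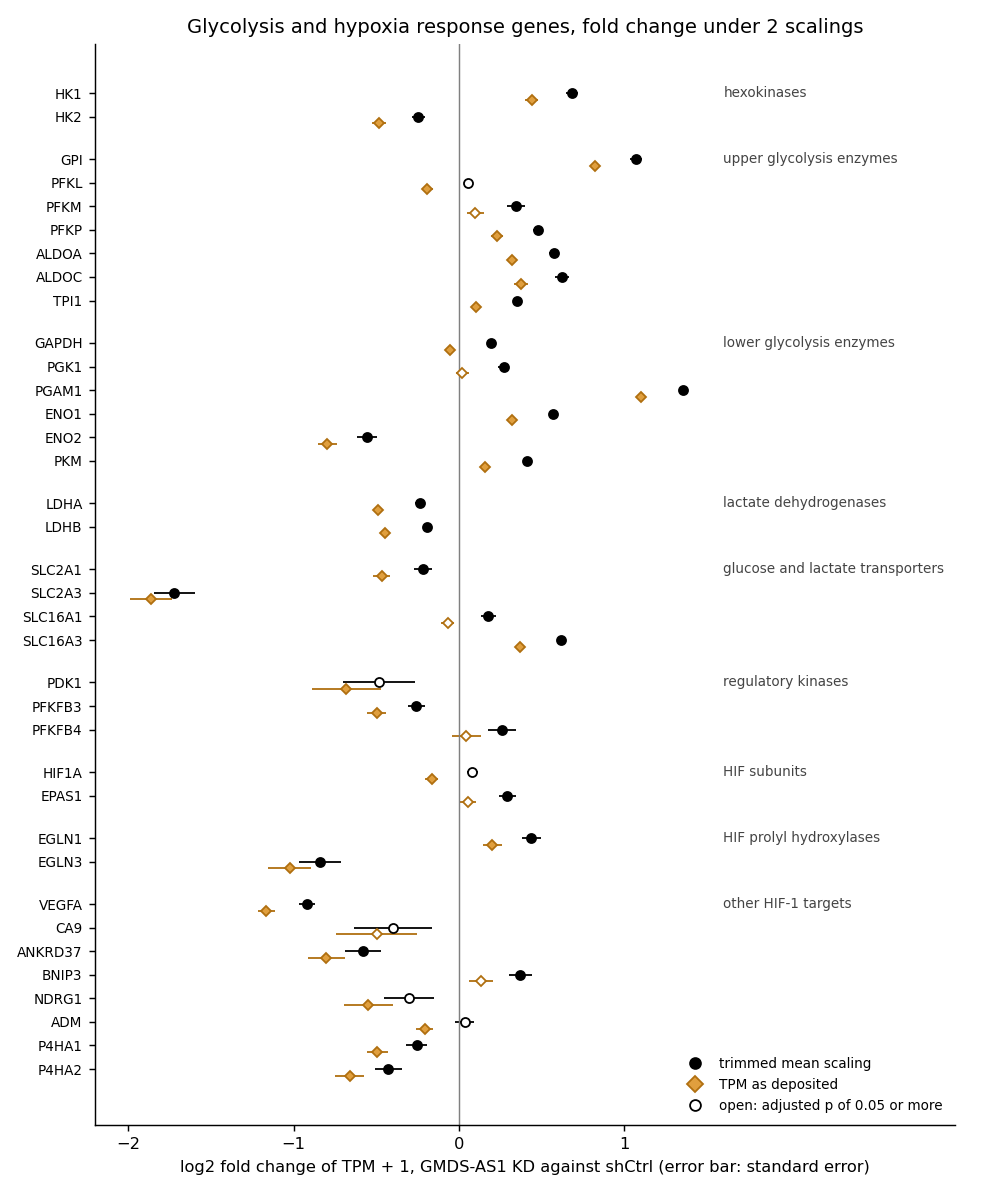
Log2 fold change of TPM + 1 in GMDS-AS1 KD against shCtrl for the 36 genes, grouped by role, with the standard error from limma. Circles are after trimmed mean scaling and diamonds are TPM as deposited, and filled symbols have an adjusted p under 0.05. PGAM1 (1.35 scaled, 1.10 as deposited) and SLC2A3 (-1.72 and -1.86) stand at the ends, and the diamonds of all genes lie to the left of the circles.

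The 17 enzyme genes did not move as 1 block. After scaling 12 were higher, 4 were lower and PFKL was not called, with a median log2 fold change of 0.35, while on the deposited scale 9 were higher and 6 lower, with a median of 0.10. For comparison, the other 19 genes had 6 higher and 8 lower after scaling and a median of -0.26. Of all tested genes, 28.7% were higher and 25.8% lower after scaling, and 16.3% and 40.3% as deposited. The difference between the enzyme genes and the other 19 genes was not tested. Ratios between genes of 1 library do not depend on the scale.

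Both glucose transporter genes were lower on both scales. SLC2A1, which encodes the main glucose transporter GLUT1 of most tumour cells, had 213, 214 and 219 TPM in shCtrl and 144, 157 and 166 TPM in KD, and every KD library was below every shCtrl library. Its log2 fold change was -0.22 (SE 0.054, adjusted p = 0.0128 in limma) after scaling and -0.47 as deposited. SLC2A3 (ENSG00000059804, GRCh38 chromosome 12, 7919230 to 7936275, minus strand), which encodes the high-affinity glucose transporter GLUT3, had 4.46, 4.78 and 3.71 TPM in shCtrl and 0.560, 0.490 and 0.330 TPM in KD. This was the largest fall among the 36 genes, with a log2 fold change of -1.72 (SE 0.12, adjusted p = 3.84e-05 in limma) after scaling and -1.86 as deposited. With a pseudocount of 0.1 in place of 1 the scaled value was -2.77. SLC2A3 shares near-identical sequence with SLC2A14 and processed pseudogenes, and SLC2A3P1 alone was listed at 3.24, 3.33 and 6.09 TPM in shCtrl and 1.33, 3.04 and 3.29 TPM in KD. The fall of SLC2A3 is therefore uncertain in size, and the sum over SLC2A3, SLC2A14 and the pseudogenes was 7.92 to 9.92 TPM in shCtrl and 2.04 to 3.70 TPM in KD.

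The hexokinases, which trap glucose in the cell by phosphorylation, moved in opposite directions on both scales. HK1, the form of most tissues, had 47.2, 48.2 and 48.6 TPM in shCtrl and 66.3, 62.4 and 67.7 TPM in KD, and rose by a log2 fold change of 0.69 (SE 0.038, adjusted p = 1.21e-05 in limma) or 0.44 as deposited. HK2, the other form, had 26.3, 26.2 and 25.4 TPM in shCtrl and 18.4, 18.2 and 18.1 TPM in KD. Its log2 fold change was -0.25 (SE 0.041, adjusted p = 0.00215 in limma) after scaling and -0.48 as deposited, and for both genes the groups did not overlap. The sum of the pair was 1.13 times the shCtrl mean in KD with deposited TPM.

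GPI, the isomerase of the next step, showed the second largest rise of the 36 genes. GPI (ENSG00000105220, GRCh38 chromosome 19, 34359480 to 34402413, plus strand) had 191, 183 and 194 TPM in shCtrl and 342, 336 and 330.4 TPM in KD. The lowest KD library was far above the highest shCtrl library, and the log2 fold change was 1.07 (SE 0.036, adjusted p = 1.79e-06 in limma) after scaling and 0.82 as deposited, so the threshold of 2-fold was met only after scaling.

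The 3 phosphofructokinase genes, whose enzyme commits sugar to glycolysis, changed unequally. PFKP, the most abundant, had 248, 234 and 233 TPM in shCtrl and 282, 271 and 287 TPM in KD and was higher on both scales (log2 0.48 and 0.23). PFKM, the muscle form, was higher only after scaling (log2 0.35, adjusted p = 0.00177 in limma, against 0.098 as deposited), with deposited TPM that overlapped between the groups. PFKL, the liver form, had 81.1, 79.4 and 78.2 TPM in shCtrl and 69.2, 68.9 and 70.7 TPM in KD. It was lower as deposited (log2 -0.19, adjusted p = 0.00197 in limma) and not called after scaling, where its sign turned (log2 0.057, adjusted p = 0.132).

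The aldolases, which cut the sugar into triose phosphates, rose together. ALDOA had 791, 745 and 754 TPM in shCtrl and 955, 953 and 956 TPM in KD, and ALDOC, a minor form best known from brain, had 50.2, 49.5 and 51.5 TPM in shCtrl and 68.8, 62.8 and 65.5 TPM in KD. Both were higher on both scales, with log2 fold changes of 0.57 and 0.62 after scaling and 0.32 and 0.37 as deposited. TPI1, which interconverts the triose phosphates, rose less, from 636 ± 6.19 to 684 ± 13.8 TPM (mean ± SD, n = 3 libraries each), a log2 fold change of 0.35 after scaling and 0.10 as deposited.

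GAPDH, the dehydrogenase of the first oxidative step and a common reference gene, was the most abundant of the 36 genes. It had 5438, 5259.6 and 5283 TPM in shCtrl and 5119.9, 5109 and 5142 TPM in KD, 0.530 to 0.549% of all TPM against 0.514 to 0.518%. GAPDH was called in opposite directions on the 2 scales, lower as deposited (log2 -0.056, adjusted p = 0.0481 in limma) and higher after scaling (log2 0.19, adjusted p = 0.000268). PGK1, which makes the first ATP of the pathway, had 190.1 ± 8.69 TPM in shCtrl and 193 ± 2.49 TPM in KD (mean ± SD, n = 3), with overlapping libraries, and was called higher only after scaling (log2 0.27, adjusted p = 0.000518 in limma, against 0.021 as deposited).

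PGAM1, the mutase of the next step, rose most of the 36 genes on both scales. PGAM1 (ENSG00000171314, GRCh38 chromosome 10, 97426160 to 97433441, plus strand) had 254, 245 and 246 TPM in shCtrl and 533, 523 and 548 TPM in KD. The groups were widely apart, and the log2 fold change was 1.35 (SE 0.024, adjusted p = 2.17e-07 in limma) after scaling and 1.10 as deposited. The 13 annotated PGAM1 pseudogenes summed to at most 0.816% of the TPM of gene and pseudogenes in any library, and for the other glycolytic enzymes with annotated pseudogenes that share was at most 0.388%.

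The enolases diverged as the hexokinases did. ENO1, the form of most tissues, had 1869, 1820.0 and 1802 TPM in shCtrl and 2278, 2249.8 and 2334 TPM in KD and rose by log2 0.57 after scaling and 0.32 as deposited. ENO2, the neuronal form (ENSG00000111674, GRCh38 chromosome 12, 6913745 to 6923698, plus strand), had 30.4, 31.4 and 30.6 TPM in shCtrl and 17.6, 18.3 and 16.1 TPM in KD, with no overlap. Its log2 fold change was -0.56 (SE 0.062, adjusted p = 0.000314 in limma) after scaling and -0.80 as deposited. PKM, the pyruvate kinase of the last ATP step, rose from 1173 ± 18.4 to 1311 ± 22.2 TPM (mean ± SD, n = 3), a log2 fold change of 0.41 after scaling and 0.16 as deposited.

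Lactate dehydrogenase, which turns pyruvate into lactate, was the 1 step whose genes all fell on both scales. LDHA had 354, 344 and 348 TPM in shCtrl and 249, 250.1 and 246 TPM in KD, and LDHB had 1079, 1040.1 and 1036 TPM in shCtrl and 764, 775 and 779 TPM in KD. The log2 fold changes were -0.24 and -0.19 after scaling (adjusted p = 0.000311 and 0.000501 in limma) and -0.49 and -0.44 as deposited. The lactate exporters were not lower on either scale at the threshold. SLC16A3, which encodes the exporter MCT4 of glycolytic cells, had 206, 203 and 203 TPM in shCtrl and 268, 255 and 268 TPM in KD and rose by log2 0.62 after scaling and 0.37 as deposited. SLC16A1, which encodes the bidirectional carrier MCT1, had overlapping TPM and was called higher after scaling (log2 0.18, adjusted p = 0.0133 in limma) but not as deposited, where its sign turned (log2 -0.067, adjusted p = 0.179).

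**Figure D2:**
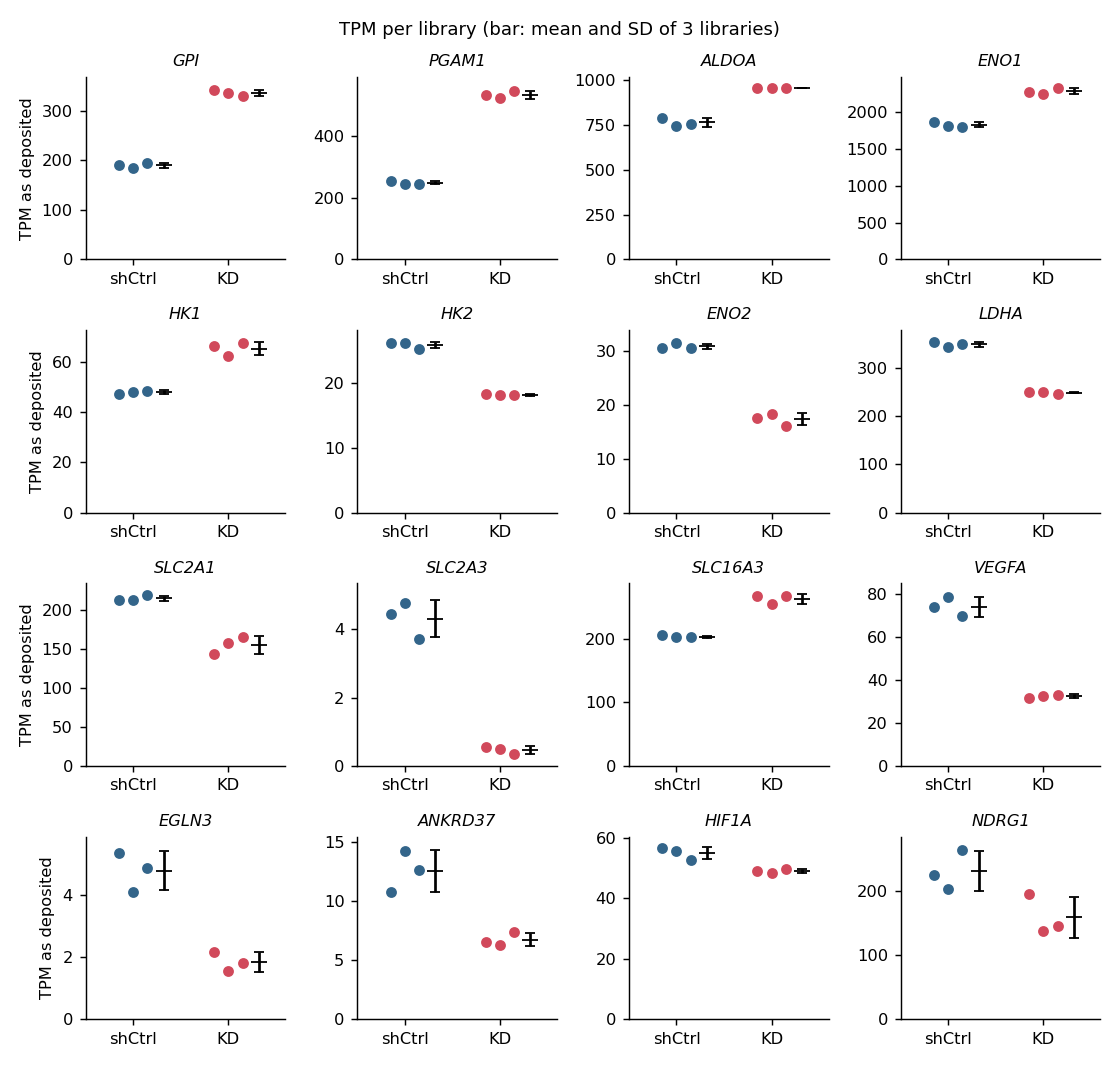
TPM as deposited in each of the 3 shCtrl and 3 KD libraries for 16 of the genes, with a bar at the mean and whiskers of 1 SD. Each axis starts at 0. GPI and PGAM1 lie higher and SLC2A3 and VEGFA lower in every KD library, and the NDRG1 groups come close to each other.

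Summed over all 17 enzyme genes, the level was 12175 to 12578 TPM in shCtrl and 12949 to 13150 TPM in KD, which is 1.23 to 1.27% and 1.30 to 1.32% of all TPM. The ratio of KD to shCtrl was 1.06 with deposited TPM and 1.26 after scaling, and without GAPDH 1.13 and 1.35. By step, with deposited TPM, the ratio was 2.15 for phosphoglycerate mutase, 1.77 for glucose-6-phosphate isomerase, 1.25 for aldolase and 1.24 for enolase. It was 1.13 for hexokinase, 1.12 for pyruvate kinase, 1.09 for phosphofructokinase, 1.07 for triosephosphate isomerase and 1.01 for phosphoglycerate kinase. GAPDH (0.962) and lactate dehydrogenase (0.729) were under 1 on this scale, while after scaling lactate dehydrogenase alone was (0.867, against 1.14 for GAPDH). These sums were not tested.

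**Figure D3:**
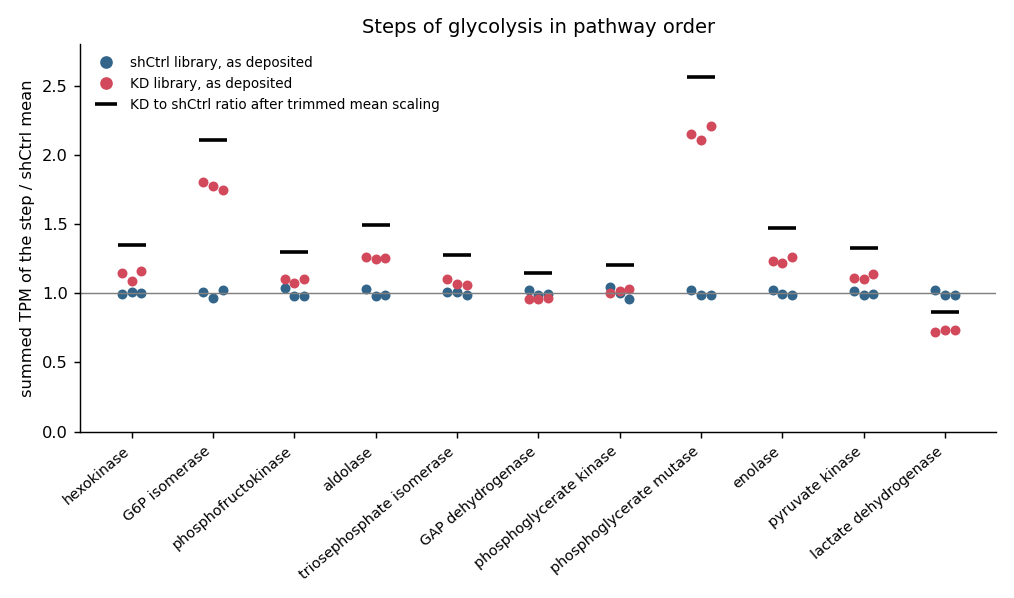
Summed TPM of each glycolytic step in pathway order, divided by the mean of the 3 shCtrl libraries. Points are single libraries with TPM as deposited, and black bars are the KD to shCtrl ratio after trimmed mean scaling. Phosphoglycerate mutase (2.15) and glucose-6-phosphate isomerase (1.77) rise furthest above 1, and lactate dehydrogenase (0.729) is below 1 on both scales.

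Shares between isozymes within a library do not depend on the scaling, and 11 were compared. With 3 libraries a group an exact two-sided permutation test cannot go below 0.1, so none could pass the threshold. For 9 shares the groups did not overlap (exact permutation p = 0.1, adjusted p = 0.122). Shares of other gene pairs were not computed, so this count has no background of its own. The deposited TPM of single genes did not overlap for 63.7% of all tested genes. HK2 made up 35.1 ± 0.740% of hexokinase TPM in shCtrl and 21.8 ± 0.748% in KD (SD, n = 3), and ENO2 made up 1.66 ± 0.0479% and 0.753 ± 0.0629% of enolase TPM. SLC2A3 held 1.97 ± 0.273% of the glucose transporter pair in shCtrl and 0.299 ± 0.0957% in KD (SD, n = 3). The size of this difference is uncertain. Of the TPM of SLC2A3 and its annotated pseudogenes, 42.3 to 62.6% lay on the pseudogenes in shCtrl and 72.5 to 91.1% in KD. The share of PFKL was 19.9 ± 0.398% in shCtrl and 15.9 ± 0.222% in KD, and that of the exporter SLC16A3 was 78.0 ± 0.653% and 82.8 ± 0.626%.

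The lactate dehydrogenases differed little in proportion, with a mean difference of 0.563 percentage points. LDHB held 75.1 ± 0.223% of their TPM in shCtrl and 75.7 ± 0.283% in KD (SD, n = 3). Among the regulators, EGLN3 held 22.8 ± 2.52% of the EGLN1 and EGLN3 sum in shCtrl and 8.91 ± 1.08% in KD. PFKFB4 went from 18.5 ± 0.805% to 25.3 ± 0.564% of the PFKFB pair, and EPAS1 from 22.4 ± 0.902% to 25.2 ± 0.644% of the HIF alpha pair. The shares of ALDOC (6.20 ± 0.217% and 6.44 ± 0.271%) and P4HA2 (49.0 ± 1.92% and 45.9 ± 4.01%) overlapped between the groups (exact permutation p = 0.4).

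**Figure D4:**
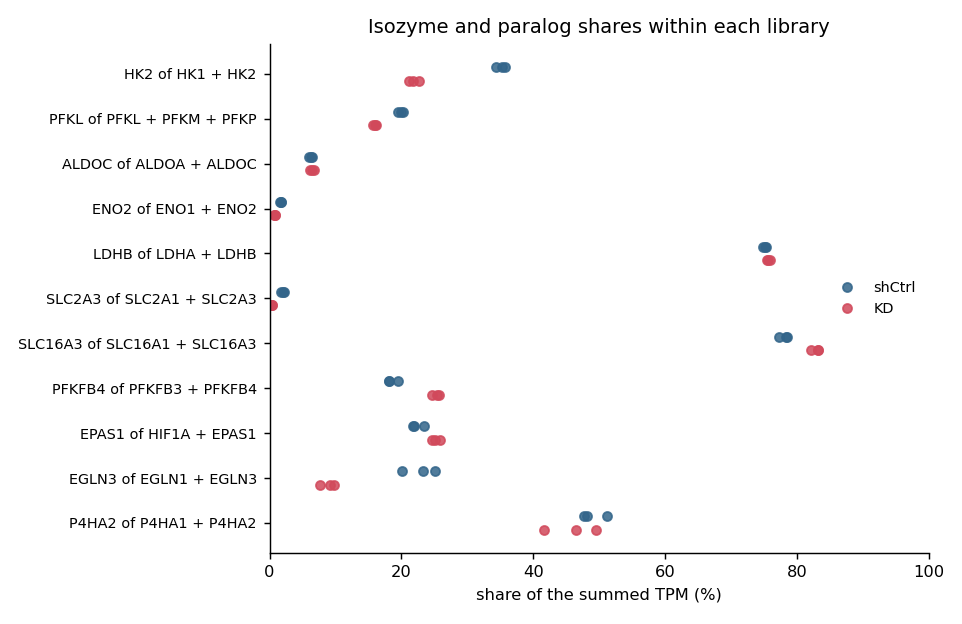
Share of 1 isozyme or paralog in the summed TPM of its family, in percent, for each of the 3 shCtrl and 3 KD libraries. HK2 (35.1% to 21.8%) and EGLN3 (22.8% to 8.91%) have the widest gaps between the groups, and the ALDOC and P4HA2 points overlap.

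The regulatory kinases were lower or depended on the scale. PFKFB3, whose enzyme makes a sugar bisphosphate that activates phosphofructokinase, had 28.8, 26.1 and 26.4 TPM in shCtrl and 19.5, 18.2 and 19.0 TPM in KD and was lower on both scales (log2 -0.26, adjusted p = 0.00561 in limma, and -0.50 as deposited). PFKFB4, a second enzyme of this kind, had 6.96, 5.76 and 5.83 TPM in shCtrl and 6.39, 6.31 and 6.47 TPM in KD, with overlap. Its call as higher after scaling (log2 0.26, adjusted p = 0.0369 in limma) was lost as deposited and without any 1 library other than shCtrl replicate 1, with adjusted p of 0.0820 to 0.110. PDK1, which blocks entry of pyruvate into mitochondrial metabolism, had 4.92, 5.06 and 6.02 TPM in shCtrl and 2.34, 4.51 and 2.32 TPM in KD. KD replicate 2 lay close to the shCtrl libraries, and the log2 fold change of -0.48 (adjusted p = 0.106 in limma) became -0.74 (adjusted p = 0.00386) without it. Leaving out other single libraries gave values up to -0.35 and adjusted p up to 0.265 in limma. On the deposited scale PDK1 was called lower with all libraries (-0.68).

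The HIF alpha subunit genes had small fold changes. HIF1A had 56.7, 55.7 and 52.8 TPM in shCtrl and 48.9, 48.4 and 49.6 TPM in KD. It was lower as deposited (log2 -0.17, adjusted p = 0.0101 in limma) and not called after scaling, where the sign turned (log2 0.08, adjusted p = 0.0876). EPAS1, which encodes HIF-2 alpha, had 15.8, 15.6 and 16.1 TPM in shCtrl and 16.4, 16.9 and 16.2 TPM in KD and was called higher only after scaling (log2 0.29, against 0.056 as deposited). HIF-1 activity is set mainly through protein stability, which RNA levels do not measure.

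The prolyl hydroxylase genes moved apart on both scales. EGLN1, the main oxygen sensor, had 16.0, 16.3 and 16.0 TPM in shCtrl and 19.9, 18.3 and 17.9 TPM in KD and rose by log2 0.44 (adjusted p = 0.000639 in limma) or 0.20 as deposited. EGLN3, the other hydroxylase, had 5.35, 4.10 and 4.85 TPM in shCtrl and 2.17, 1.53 and 1.81 TPM in KD. Its log2 fold change was -0.84 (SE 0.13, adjusted p = 0.00153 in limma) after scaling and -1.02 as deposited, and no library of one group reached the other.

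Of the 8 other HIF-1 targets, VEGFA, ANKRD37, P4HA1 and P4HA2 fell on both scales, and none rose on both. Among all tested genes 25.8% were lower and 16.3% higher on both scales, so a count over 8 genes says little. VEGFA (ENSG00000112715, GRCh38 chromosome 6, 43770184 to 43786487, plus strand), the main growth factor for blood vessels, had 73.6, 78.3 and 69.5 TPM in shCtrl and 31.3, 32.5 and 33.1 TPM in KD. All KD libraries were below all shCtrl libraries by a wide margin, with a log2 fold change of -0.92 (SE 0.047, adjusted p = 8.83e-06 in limma) after scaling and -1.17 as deposited. ANKRD37, an ankyrin repeat gene known as a hypoxia marker, had 10.8, 14.3 and 12.7 TPM in shCtrl and 6.54, 6.30 and 7.41 TPM in KD (log2 -0.58, adjusted p = 0.00394 in limma, and -0.80 as deposited). P4HA1 and P4HA2, the catalytic subunits of collagen prolyl hydroxylase, fell by 0.26 and 0.43 on the log2 scale after scaling and by 0.49 and 0.66 as deposited, from means of 21.4 ± 1.30 and 20.6 ± 0.435 TPM to 14.9 ± 0.771 and 12.7 ± 1.53 TPM (± SD, n = 3).

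The remaining targets were less clear. BNIP3, a mitochondrial receptor of autophagy, had 25.1 ± 2.37 TPM in shCtrl and 27.5 ± 0.793 TPM in KD (mean ± SD, n = 3), with overlap, and was called higher only after scaling (log2 0.37, adjusted p = 0.00329 in limma, against 0.13 as deposited). Up to 9.50% of the TPM of BNIP3 and its annotated pseudogenes lay on the pseudogenes. ADM, the vessel-dilating peptide adrenomedullin, had 28.9, 31.0 and 31.4 TPM in shCtrl and 26.8, 26.8 and 25.0 TPM in KD. It was lower as deposited (log2 -0.21, adjusted p = 0.0134 in limma) and had the opposite sign with no call after scaling (log2 0.034, adjusted p = 0.646).

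NDRG1, a growth-related gene that hypoxia induces, had 225, 203 and 264 TPM in shCtrl and 195, 137 and 144 TPM in KD. It was lower as deposited (log2 -0.55, adjusted p = 0.0173 in limma) and not called after scaling. KD replicate 1 lay nearest to the shCtrl libraries, and the scaled log2 fold change of -0.30 (adjusted p = 0.139 in limma) became -0.45 (adjusted p = 0.0205) without it. Leaving out other single libraries gave values up to -0.19 and adjusted p up to 0.352 in limma. CA9, the membrane carbonic anhydrase of hypoxic tumours, was near the filter, with 1.33, 0.380 and 1.62 TPM in shCtrl and 0.360, 0.450 and 0.520 TPM in KD. The log2 fold change was -0.40 (adjusted p = 0.200 in limma) after scaling and -0.50 as deposited. shCtrl replicate 2 lay within the KD range, and without it the scaled value became -0.67 (adjusted p = 0.0106 in limma). Leaving out other single libraries gave values up to -0.22 and adjusted p up to 0.482 in limma.

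HIF-1 binds a short core, ACGTG or GCGTG, and these letters were searched on both strands in the 250 bases before each RefSeq start (GRCh38.p14). The palindrome CACGTG holds ACGTG on both strands, so the matches overlap there. Windows were found for 32 of the 36 genes, 59 windows in all, and not for SLC2A3, SLC16A1, VEGFA and NDRG1. ACGTG was in 37.3% of these windows and in 18.5% of all 35116 windows of the table, GCGTG in 30.5% and 32.2%, and either in 57.6% and 43.2%. Among windows of genes lower on both scales ACGTG was in 7 of 13, from 10 genes. Among those of genes higher on both scales it was in 9 of 27, from 11 genes. Genes with several starts weigh more in these shares, such as HK1 with 7 windows and no ACGTG. By gene, ACGTG was found before HK2, ENO2, LDHA, PFKFB3, ANKRD37 and P4HA1 of the 10 lower genes. Of the 11 higher genes it was found before GPI, PFKP, ALDOA, ALDOC, TPI1, SLC16A3 and EGLN1. Windows of 1 gene can overlap, and these shares were not tested.

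For the 10 genes with 1 window and an ACGTG match, the match nearest the start is shown with 12 bases on each side, to let the surroundings be compared between genes that fell and genes that rose. Sequences are RefSeq, on the strand of the gene, 5′ to 3′, with each match to the core in capitals, on whichever strand of the DNA it lies. On the plus strand lie ANKRD37 (chr4:185396686-185396714), CA9 (chr9:35673898-35673926), ENO2 (chr12:6914450-6914478), GAPDH (chr12:6535172-6535200), GPI (chr19:34364818-34364846) and PGK1 (chrX:78104053-78104081). On the minus strand lie ALDOC (chr17:28576907-28576935), BNIP3 (chr10:131982040-131982068), EGLN1 (chr1:231422284-231422312) and P4HA1 (chr10:73096936-73096964).
ANKRD37: cagtgtttgtgtACGTGcggccgtggcgg
ENO2: acccgcgctcgtACGTGcgcctccgccgg
P4HA1: tgtgatcgagctCACGTagcgagggctgc
CA9: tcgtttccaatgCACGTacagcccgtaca
GAPDH: ctctgcggggtCACGTGtcgcagaggagc
PGK1: aaacggaagccgCACGTctcactagtacc
BNIP3: cgCACGCgccgCACGTGccaCACGCaccc
EGLN1: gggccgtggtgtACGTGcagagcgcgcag
ALDOC: ccccggaggagtCACGTagctctgcgaca
GPI: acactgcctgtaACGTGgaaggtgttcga

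ANKRD37, ENO2 and P4HA1 fell on both scales, EGLN1, ALDOC and GPI rose on both, GAPDH, PGK1 and BNIP3 depended on the scale and CA9 was not called. A longer form, TACGTGC on either strand, was chosen after these stretches were seen. It was in 5 of the 59 windows (8.47%) and in 0.703% of all windows. The form was picked from stretches of these same windows, and 4 of the 10 stretches hold it. The gap between these percentages therefore cannot show an excess among these genes. The 5 windows belong to ANKRD37, CA9, EGLN1, ENO2 and TPI1, of which ANKRD37 and ENO2 fell on both scales while EGLN1 and TPI1 rose on both. BNIP3 had 6 matches of either core between 104 and 143 bases before the start, and PGAM1, the gene with the largest rise, had none in its window. All 250 bases of the PGAM1 window (chr10:97427568-97427817) overlapped an annotated exon, as in several other windows. It lies past the annotated start of the gene at base 97426160, and the sequence before that start was not searched.

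Routes that branch from glycolysis were described by lists of further genes, read against the shares of all genes called. These were 28.7% higher and 25.8% lower after scaling, and 16.3% and 40.3% as deposited. Past 2-fold after scaling they were 2.96% and 4.21%. The pentose phosphate pathway, which leaves glycolysis after the first phosphorylation and makes NADPH and ribose, had 6 of 7 tested genes higher and none lower after scaling, with RPE not called, and 5 higher and 1 lower as deposited. TKT, the transketolase that returns sugars to glycolysis, had 311.5, 319 and 302 TPM in shCtrl and 538, 525 and 539.7 TPM in KD, a log2 fold change of 1.03 after scaling and 0.78 as deposited, so that it passed 2-fold only after scaling. RPIA, the ribose phosphate isomerase, passed 2-fold on both scales (1.27 and 1.03).

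Of 13 genes for the entry of pyruvate into mitochondria, 7 were higher and 3 lower after scaling, and 5 higher and 5 lower as deposited. MPC2, a subunit of the pyruvate carrier, rose by a log2 fold change of 1.02 after scaling and 0.79 as deposited. PDHX, which anchors a subunit in the pyruvate dehydrogenase complex, had 22.1, 22.1 and 22.3 TPM in shCtrl and 6.27, 4.60 and 5.32 TPM in KD (log2 -1.64 after scaling and -1.86 as deposited). Of 17 tested genes among 31 further glycolysis and gluconeogenesis genes, 4 were higher and 11 lower after scaling, and 1 higher and 12 lower as deposited. PCK2, the mitochondrial enzyme that makes phosphoenolpyruvate, fell most, with 104.5 ± 2.55 TPM in shCtrl and 12.9 ± 0.510 TPM in KD (SD, n = 3). Its log2 fold change was -2.69 after scaling and -2.93 as deposited. On the same 2 scales ENO3 (-1.36 and -1.57), the glucose transporter gene SLC2A8 (-1.23 and -1.45), LDHD (-1.19 and -1.36) and ARRDC4 (-1.03 and -1.27) followed. HKDC1 (-1.02 and -1.14) was the sixth gene lower by at least 2-fold after scaling.

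Of 11 tested genes among 12 further HIF pathway components, 4 were higher and 2 lower after scaling, none by 2-fold, and 2 higher and 6 lower as deposited. Of 32 tested genes among 34 further HIF-1 targets, 11 were higher and 10 lower after scaling, with 3 and 6 past 2-fold. As deposited 6 were higher and 14 lower, where 16.3% of all genes were higher and 40.3% lower. DDIT4, an inhibitor of mTOR signaling that stress and hypoxia induce, fell from 775 ± 21.9 in shCtrl to 126.5 ± 3.93 TPM in KD (SD, n = 3), a log2 fold change of -2.36 after scaling and -2.61 as deposited. LOXL2 (-1.87 and -2.10) and STC2 (-1.85 and -2.10) fell on the same 2 scales, and HMOX1 (1.74 after scaling), which degrades heme, and JMJD6 (1.73 and 1.49) rose on both. The median log2 fold change of these 32 genes was -0.05 after scaling and -0.29 as deposited, beside 0.00 and -0.20 for all genes.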

How the data were processed

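The authors prepared poly-A selected libraries of HCT116 cells, read them in pairs, and named TopHat2 2.1.1, Trimmomatic 0.27 and the build GRCh38.p13 in the submitters' processing notes. Their methods name Cufflinks and RSEM for expression; the test they named for their own comparison needs counts and was not used here. The authors deposited TPM per Ensembl gene, rounded and without scaling between libraries, so low genes carry rounding error and no counting error can be given. Of the genes, 2 had broken lines and no value, and 58335 identifiers were found in GENCODE v29, the source of positions and gene types. The groups came from the sample titles, with 3 libraries each, and no pair of libraries was identical.

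Factors were the trimmed mean of M-values on TPM (30% of log ratios and 5% of means trimmed, no weights). The test on log2(TPM + 1) was the moderated linear model of limma 3.58.1 (R 4.3.3), using a variance trend but no block. Tested on simulated data of 16497 genes with 200 changed, the fit found 194 of these and 1 other gene past 2-fold and an adjusted p of 0.05. Calls at the adjusted p alone were not checked in this way. Far fewer genes were changed there than were called in the data (54.4% of those tested). Shares were tested by exact permutation (scipy 1.17.1). Pseudogenes were matched by symbol, and TPM assigned to near-identical copies is uncertain. Promoter windows came from RefSeq (GRCh38.p14), and many of them overlap annotated exons. The members, the further lists and the tests were chosen with earlier results of these data known. The text names all 36 members, GMDS-DT, and up to 5 genes of each further list that passed 2-fold and an adjusted p of 0.05, by size, except that 1 of these genes is not reported here, although it is part of the counts. HKDC1, RPE and single markers of epithelial and other cells were named after their values were seen. Alternatives covered scaling, pseudocount, filter, variance trend, replicate block and leaving out each library.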

Additional observations from a re-analysis of the deposited data

How the results depend on the processing

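TPM as deposited gave 2756 higher and 6814 lower genes (225 and 1177 past 2-fold), against 4844 and 4355 (500 and 712) after trimmed mean scaling. Among the 36 genes it gave 11 higher and 18 lower, with 1 higher (PGAM1) and 3 lower (SLC2A3, VEGFA and EGLN3) past 2-fold. Upper-quartile scaling gave 1 and 2 past 2-fold (PGAM1, and SLC2A3 with VEGFA). A pseudocount of 0.1 gave 1461 lower genes past 2-fold over all genes, and 2 lower among the 36 (SLC2A3 and EGLN3). Signs turned with TPM as deposited for PFKL (-0.19), GAPDH (-0.056), SLC16A1 (-0.067), HIF1A (-0.17) and ADM (-0.21), with upper-quartile scaling for PFKL (-0.035), HIF1A (-0.012) and ADM (-0.056), and for ADM without shCtrl replicate 1 (-0.0053, adjusted p = 0.949 in limma, with up to 0.074 without GMDS-AS1 KD replicate 3). Under upper-quartile scaling SLC16A1 and PFKFB4 also lost their calls. No member changed its call with the pseudocount of 0.1, a group mean of at least 1 TPM or no variance trend, and without a filter only PFKFB4 did.

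For GMDS-DT the log2 fold change stayed at -0.41 and the call was lost without a filter (adjusted p = 0.133 in limma) and with a group mean of at least 1 TPM (0.0641). Leaving out 1 library gave -0.51 to -0.29. Over these fits the counts among the 36 genes were 17 to 18 higher and 12 to 13 lower, and 2 higher and 1 lower past 2-fold.

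The replicate numbers are shared between the groups but did not pair the libraries. Correlations of their deviations from the group means were 0.03, -0.04 and 0.01. With the replicate number as a block 4569 genes were higher and 4071 lower, and among the 36 genes 17 and 12. The block cost PFKFB4 its call (adjusted p = 0.0673) and GMDS-DT its call (log2 -0.41, adjusted p = 0.0523), and no other member changed.

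The differences between isozyme shares kept their sign when each library was left out and when pseudogenes were added, from -13.7 to -12.9 percentage points for HK2 and from 0.0957 to 0.365 points for ALDOC. The cause of the shift between scalings was not tested, and without read totals the depth behind low genes such as CA9 and SLC2A3 is unknown.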
